A study of Mus musculus with 24 samples.

Results

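Listed here were 10 mouse genes of the primary cilium: the BBSome subunits Bbs1, Bbs2, Bbs4, Bbs7, Bbs9 and Ttc8, the transition zone genes Tctn2, B9d1 and B9d2, and Kif3a, a subunit of the kinesin that carries cargo towards the ciliary tip. A gene was taken from the list where the array's annotation assigned a probe set to that gene alone, which left 7 of the 10 genes on 8 probe sets, of 12393 genes so measured on the array. Bbs1, Bbs4 and Bbs7 were not analysed here. The array gave RNA levels in C2C12 cells, a line of mouse myoblasts, on 24 arrays.

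The primary cilium is a single microtubule-based projection that most cells build when they leave the cell cycle and take down when they enter it again. Intraflagellar transport (IFT) builds it: kinesin-II, which contains KIF3A, carries IFT trains outward, and IFT88 is a core protein of the IFT-B part of those trains. The BBSome is a coat-like complex that moves membrane proteins along and out of the cilium, and the transition zone is the gate at the ciliary base, where the tectonic TCTN2 and the B9-domain proteins B9D1 and B9D2 belong to the same protein complex.

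The 8 groups of 3 arrays crossed 2 siRNAs with 4 culture states. IFT88KD cells were treated with siRNA to IFT88, and control cells with a negative control siRNA. Proliferating cells were attached and in DMEM with 20% FBS. Quiescent cells were kept in suspension in that same medium, replated cells were quiescent cells returned to a surface for 2 h, also with 20% FBS, and differentiating cells had been left at 80% confluence in DMEM with 2% NHS for 48 h. The siRNA acts on the transcript and is no deletion, all groups come from 1 cell line, and nothing in the labels says whether the 3 replicates were separate cultures, so that p-values measure the spread between these samples, which may be technical. In RNA from whole cultures, fewer cells expressing a gene and less of its RNA per cell cannot be told apart.

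All values are log2 signals, on which a difference of 1 is a ratio of 2. The distribution of the deposited values was nearly the same among the 6 arrays of a state and differed between states, with array medians of 3.79 to 3.85 for quiescent, 3.68 to 3.78 for differentiating, 3.58 to 3.62 for proliferating and 2.92 to 2.98 for replated cells. The siRNAs were therefore compared within a state on the deposited values, and the states on values that were quantile normalised over the 24 arrays. Tests were limma's moderated test in 1 model of all groups with Benjamini-Hochberg adjustment over the 8597 genes kept, and a gene was called at an adjusted p under 0.05. A gene was kept where its probe set lay above the 40th percentile of the array on at least 3 arrays. All 7 genes were kept, Bbs2, Ttc8, B9d1, B9d2 and Kif3a with 24 of 24 arrays above that mark, Bbs9 with 17 and Tctn2 with 9. Of the control arrays, only the 3 quiescent ones were above it for Tctn2, so that this gene entered the tests through the state in which it was high.

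The labelled cell type was checked against its markers. Of 5 myoblast markers, 4 were above the 40th percentile on all arrays of every group and 1 was below it on all of them. All 3 measured markers of multiciliated cells and all 4 endothelial markers were below it on all arrays of every group. All 4 fibroblast markers were above it on every quiescent, replated and differentiating array, and 2 on every proliferating array. Of 6 macrophage markers, 3 were above it on all control quiescent and control replated arrays, and 1 on all control proliferating arrays. Ift88 itself, the target of the siRNA, was at 4.45, 4.25 and 4.24 on the control quiescent arrays and at 3.89, 3.56 and 3.42 on the IFT88KD ones, a difference of -0.69 (SE 0.16, limma adjusted p = 0.0113). It differed by -0.52 (SE 0.16, adjusted p = 0.295) in proliferating and by -0.59 (SE 0.16, adjusted p = 0.0535) in replated cells, with no overlap of arrays in either. With the replicate number as a block, both of these passed as well (adjusted p = 0.0429 and 0.00802). In differentiating cells the difference was -0.01, with a 95% interval of -0.34 to 0.32, so the arrays labelled IFT88KD there did not show a lower level of the target.

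Bbs2, Tctn2 and Kif3a, 1 gene from each of the 3 groups, showed the largest rises in quiescent cells among the 7 genes (described further on), and the 250 bases before their RefSeq transcription starts are shown for that reason, 5′ to 3′ on the strand of the gene. They are chr8:94098510-94098759 on the minus strand for Bbs2, chr5:124598499-124598748 on the plus strand for Tctn2 and chr11:53567119-53567368 on the plus strand for Kif3a, in GRCm38.p6. The starts used for Bbs2 and Kif3a lie inside the RefSeq genes, whose outermost 5′ ends are at 94099369 and 53565701. Sequence before those ends was not searched. Capitals mark hexamers from the X-box, the motif of RFX factors that many ciliary genes carry, searched as GTTGCC or GTTACC on both strands, and the CCAAT box, searched as CCAAT on both strands, so that a match on the other strand of the CCAAT box reads ATTGG. No searched motif overlapped another.
Bbs2: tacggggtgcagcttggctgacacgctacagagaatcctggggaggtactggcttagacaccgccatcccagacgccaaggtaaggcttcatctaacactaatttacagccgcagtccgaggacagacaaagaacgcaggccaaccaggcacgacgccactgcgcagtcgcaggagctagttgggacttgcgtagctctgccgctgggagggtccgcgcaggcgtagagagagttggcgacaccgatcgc
Tctn2: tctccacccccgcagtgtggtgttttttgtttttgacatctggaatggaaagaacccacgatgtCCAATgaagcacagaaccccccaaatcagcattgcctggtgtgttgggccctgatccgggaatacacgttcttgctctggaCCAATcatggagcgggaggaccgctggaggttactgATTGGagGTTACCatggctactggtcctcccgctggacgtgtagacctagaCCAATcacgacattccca
Kif3a: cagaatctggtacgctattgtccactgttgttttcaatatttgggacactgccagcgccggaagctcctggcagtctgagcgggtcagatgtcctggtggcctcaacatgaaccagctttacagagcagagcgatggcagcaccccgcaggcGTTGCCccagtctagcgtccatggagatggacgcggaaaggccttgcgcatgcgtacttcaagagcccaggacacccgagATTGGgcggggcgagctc

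The RefSeq promoter table, which spans 250 bases before and 50 bases after each start, held all 7 genes, in 8 windows since B9d2 had a pair of starts. An X-box hexamer lay in a window of 4 of the 7 genes, Tctn2, B9d1, B9d2 and Kif3a, which are the transition zone genes and the motor, while Bbs2, Bbs9 and Ttc8 had neither a hexamer nor a CCAAT box in this window. Of all 32851 windows of that length, 18.6% held either hexamer, 12.5% GTTGCC, 7.21% GTTACC and 37.4% CCAAT. These shares are by window and not by gene, and the second B9d2 window held no hexamer. Tctn2 held 2 hexamers and 5 CCAAT boxes, and both of its hexamers stood just after an inverted CCAAT box. The hexamers that lie beyond the start, with 12 bases to either side and in capitals, follow. They are chr5:124598750-124598779 (Tctn2, plus strand), chr11:61505152-61505181 (B9d1, read here on the minus strand, opposite to the gene) and chr7:25680784-25680813 (B9d2, plus strand).
Tctn2: cattgattggtgGTTGCCatggctgcaggc
B9d1: aggccgcgcgctGTTGCCaggaggctctcg
B9d2: gaggaacctgctGTTGCCccagcaacagtc
A match is a description of the letters and not a bound site.

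Among the comparisons of the siRNAs, 2 of the 7 genes passed the test, both in quiescent cells and both lower with IFT88KD: Kif3a and B9d2. Over all genes, 5.20% were called in that comparison and 2.31% were called lower. No gene of the 7 was called in proliferating cells (0.361% of all genes called), in replated cells (2.41%) or in differentiating cells (0.140%). At an unadjusted p under 0.05 the counts were 3 of the 7 in quiescent cells, 2 in replated, 1 in proliferating and 0 in differentiating cells. Over all 8597 genes, 1405, 1227, 529 and 405 had such a p in that order. The median difference of the 7 genes was -0.13, -0.12, -0.10 and -0.04 in the same order, beside medians over all genes of -0.01, 0.01, 0.00 and 0.01. With the replicate number as a block, limma called more genes over the whole array, 1173 in place of 447 in quiescent, 955 in place of 207 in replated, 166 in place of 31 in proliferating and 89 in place of 12 in differentiating cells. The calls among the 7 genes were the same with the block, Kif3a and B9d2 in quiescent cells and 0 in the other states.

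**Figure D1:**
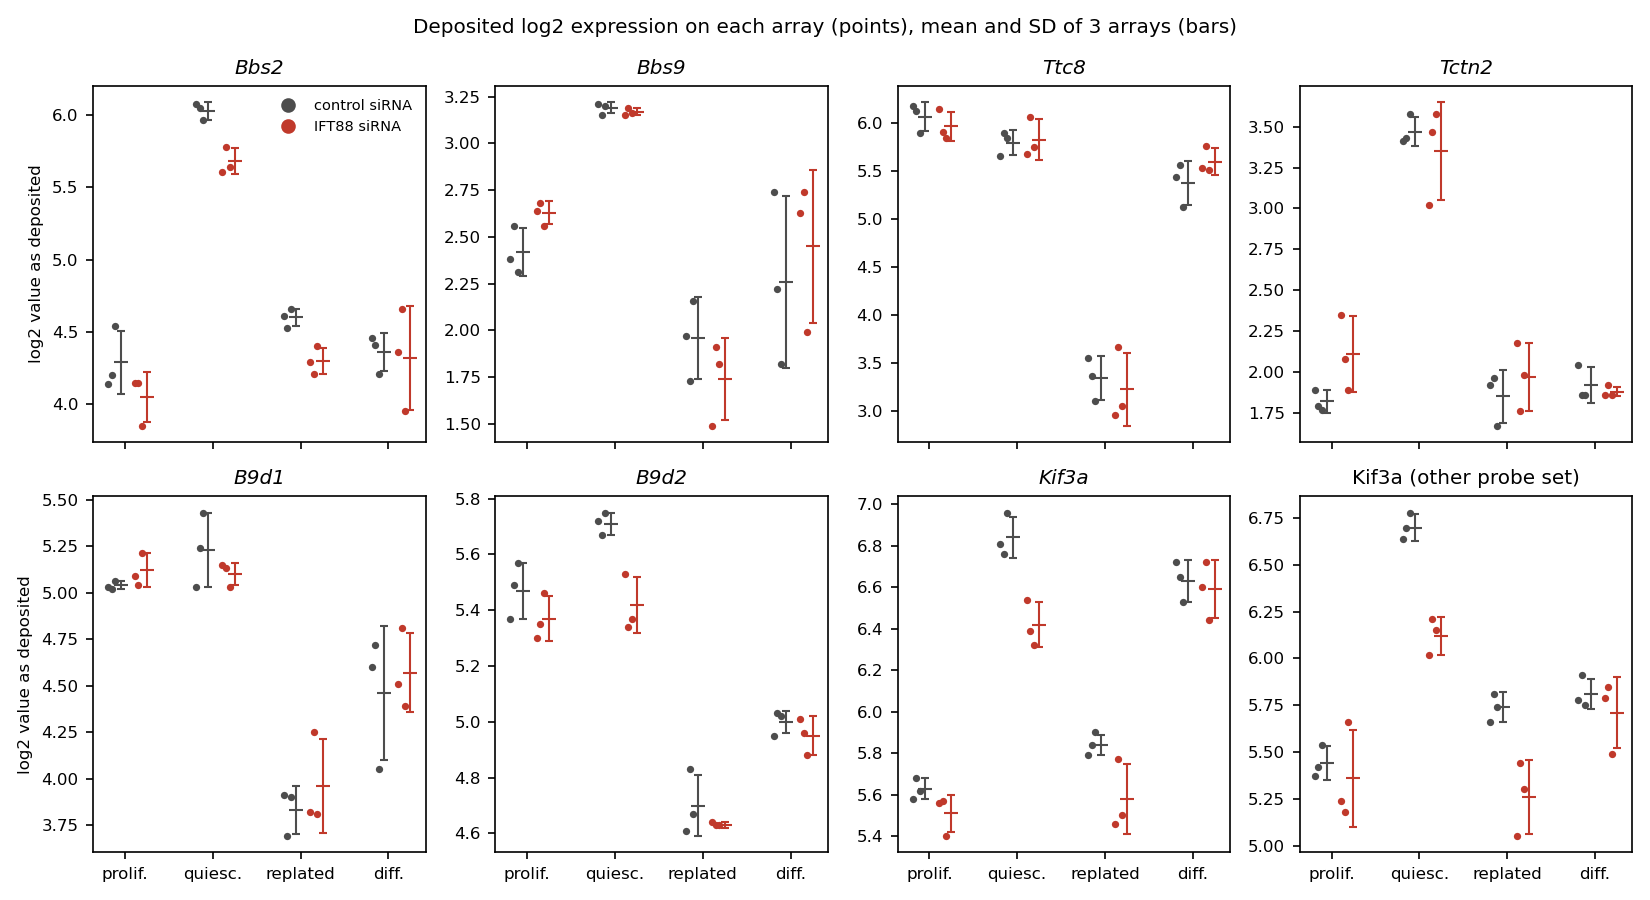
Deposited log2 values of the 7 genes (8 probe sets, each panel with its own vertical range) on every array by culture state, with control siRNA in grey and IFT88 siRNA in red; bars give the mean and SD of 3 arrays. Kif3a, B9d2 and Bbs2 are the panels in which the IFT88 siRNA arrays of quiescent cells lie wholly below the control arrays, and the replated arrays are low as a whole (medians of 2.92 to 2.98).

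Kif3a, the kinesin-II motor subunit, was at 6.81, 6.76 and 6.96 on the control quiescent arrays and at 6.54, 6.39 and 6.32 on the IFT88KD quiescent arrays. Every IFT88KD array was below every control array. The means were 6.84 ± 0.10 and 6.42 ± 0.11 (SD, n = 3), a difference of -0.42 (SE 0.10, limma adjusted p = 0.0123). Its other probe set gave 6.64, 6.70 and 6.78 against 6.02, 6.21 and 6.15, again without overlap, and differed by -0.58 (SE 0.13, adjusted p = 0.00851 over the 13866 probe sets tested on their own). The first probe set no longer passed when IFT88KD quiescent replicate 3 (-0.38, adjusted p = 0.07) or control quiescent replicate 3 (-0.37, adjusted p = 0.0773) was left out, nor when only the arrays of the compared groups entered the fit (adjusted p = 0.0528), and adjusted p ranged from 0.00159 to 0.0773 over 16 alternatives.

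In replated cells the first Kif3a probe set read 5.79, 5.84 and 5.90 in control and 5.46, 5.77 and 5.50 with IFT88KD, so the arrays again did not overlap. The difference was -0.27 (SE 0.10, adjusted p = 0.19), and that of the other probe set -0.48 (SE 0.13, adjusted p = 0.055). With the mean of both probe sets in place of the first one, Kif3a passed there (adjusted p = 0.0365). In proliferating cells the difference was -0.12 (adjusted p = 1), also without overlap, and in differentiating cells -0.05, with a 95% interval of -0.25 to 0.16.

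B9d2 encodes a B9-domain protein of the transition zone. It was at 5.72, 5.67 and 5.75 on the control quiescent arrays and at 5.53, 5.34 and 5.37 on the IFT88KD quiescent arrays. All IFT88KD arrays were below the control arrays, and the difference was -0.30 (SE 0.08, adjusted p = 0.0389). That call was near the threshold: it held in 7 of 16 alternatives and in 1 of the 6 fits that leave out 1 quiescent array, the one without IFT88KD quiescent replicate 1, with adjusted p between 0.0056 and 0.158. In the other states B9d2 differed by -0.10, -0.07 and -0.05 (proliferating, replated and differentiating), each with overlapping arrays and an adjusted p of 0.8 to 1.

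Bbs2, a core subunit of the BBSome, was lower on all IFT88KD arrays in quiescent and replated cells but was called in neither. It read 6.08, 6.05 and 5.97 in control and 5.61, 5.78 and 5.64 in IFT88KD quiescent cells, a difference of -0.36 (SE 0.14, adjusted p = 0.174). In replated cells it read 4.61, 4.53 and 4.66 against 4.29, 4.21 and 4.40, a difference of -0.30 (SE 0.14, adjusted p = 0.322). No alternative called it in either state, with lowest adjusted p of 0.0659 and 0.135. Counted by arrays alone, 3 of the 7 genes in quiescent cells were below every control array on all IFT88KD arrays, beside 13.7% of all genes. The counts were 2 in replated cells (7.70% of all genes), 1 in proliferating cells (4.29%) and 0 in differentiating cells (4.80%).

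The other BBSome and transition zone genes were not called between the siRNAs. Their intervals in quiescent cells each included the difference of the called gene B9d2 (-0.30). In quiescent cells the 95% intervals of the difference were -0.41 to 0.37 for Bbs9, a scaffold subunit of the BBSome, -0.32 to 0.38 for Ttc8 (BBS8, a tetratricopeptide-repeat subunit), -0.40 to 0.17 for Tctn2 and -0.45 to 0.19 for B9d1. Tctn2 had the largest positive difference in proliferating cells, at 2.35, 2.08 and 1.89 with IFT88KD against 1.89, 1.79 and 1.77 in control (0.29, SE 0.14, adjusted p = 0.788). These are dim signals, of which 1 of 6 arrays lay above the 40th percentile.

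**Figure D2:**
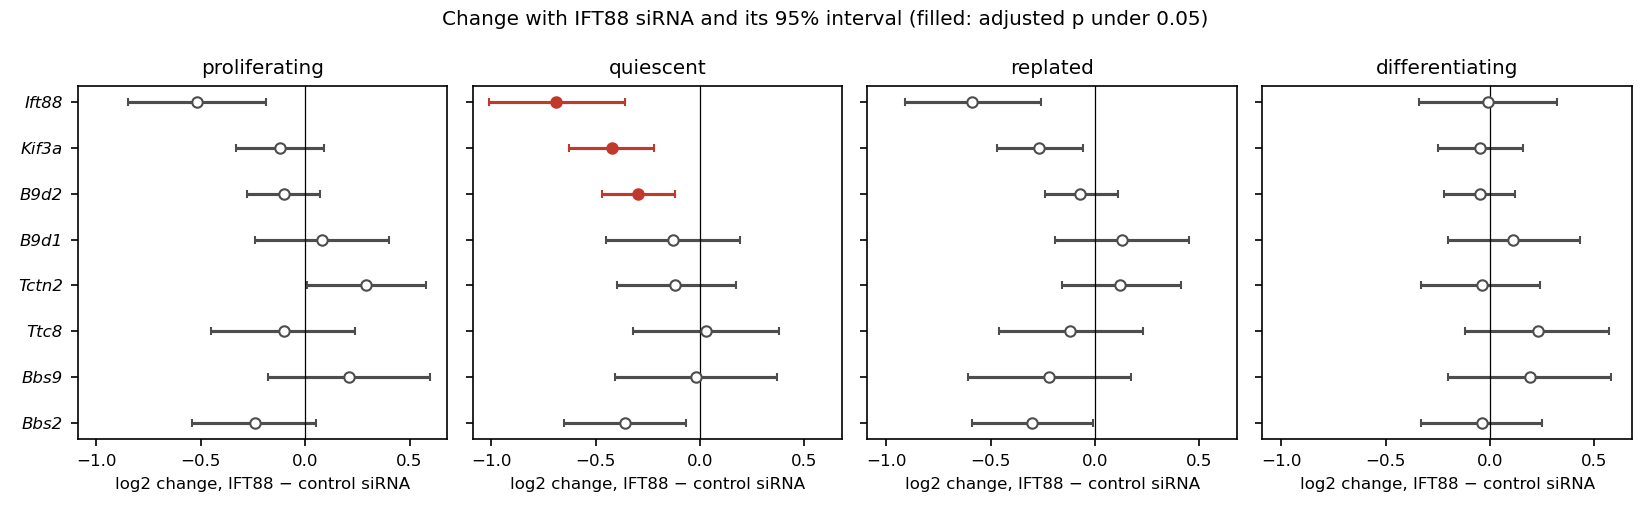
Difference between IFT88 and control siRNA (log2, horizontal axis) for Ift88 and the 7 genes in each culture state; points are fitted differences of 3 against 3 arrays, bars their 95% intervals, and filled red points have an adjusted p under 0.05. In quiescent cells Ift88 (-0.69), Kif3a (-0.42) and B9d2 (-0.30) are filled; no point is filled in the other panels.

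Whether the siRNA effect differed between states was tested directly, and 0 of the 7 genes passed in any of the 3 contrasts. Over all genes, 1.24% passed for quiescent against proliferating cells, 0.0582% for replated against quiescent cells and 0.0465% for differentiating against proliferating cells. With the replicate number as a block the counts over all genes rose from 107, 5 and 4 to 330, 12 and 44, still with 0 of the 7. At an unadjusted p under 0.05 there were 2, 0 and 0 of the 7, beside 732, 268 and 306 of all 8597 genes. Those 2 were Kif3a, whose effect in quiescent minus that in proliferating cells was -0.31 (SE 0.14, adjusted p = 0.547), and Tctn2 (-0.41, SE 0.19, adjusted p = 0.577). The Kif3a and B9d2 calls in quiescent cells are thus not shown to differ from the effect in proliferating or replated cells, and quiescent against differentiating cells was not tested.

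Markers of cycling cells and of other cell types and states moved with the siRNA in quiescent and replated cells. The summed linear signal of 6 markers of cycling cells was 94.0 to 133 on control and 316 to 443 on IFT88KD quiescent arrays, and 45.0 to 54.0 against 160 to 212 in replated cells. In proliferating cells it was 3244 to 3617 in control and 3303 to 3548 with IFT88KD. The summed signal of 6 macrophage markers was 286 to 287 against 104 to 117 in quiescent and 127 to 143 against 57.4 to 68.9 in replated cells, and 3 of the 6 were below the 40th percentile on all control quiescent arrays. Summed signals were also higher with IFT88KD for 5 myoblast markers, at 546 to 652 against 741 to 839 in quiescent and 449 to 537 against 543 to 684 in replated cells, and for 5 markers of differentiated muscle, at 1125 to 1700 against 1785 to 2618 and 521 to 836 against 981 to 1369, with no marker of either list called. The sum of 4 fibroblast markers was 5316 to 5671 against 4652 to 5239 in quiescent cells, where 1 of them was called lower, and 4295 to 4405 against 3650 to 4255 in replated cells, where limma called 0 and 2 had an unadjusted p under 0.05. The part of any of these in the lower Kif3a and B9d2 values was not tested.

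Culture states were compared next. On quantile normalised values, 4 of the 7 genes rose from proliferating to quiescent cells with control siRNA and none fell. Bbs2 rose by 1.68, Tctn2 by 1.32, Kif3a by 1.22 and Bbs9 by 0.43. Of these, Tctn2 entered the tests through its quiescent arrays. That limit applies wherever Tctn2 is counted as rising in quiescent cells or falling on replating. This comparison called 70.5% of all genes and 37.3% as higher, so that a call here is common. The median change of the 7 genes was 0.43, beside 0.04 over all genes. Marker lists of other cell types and states moved in the same comparison: all 4 fibroblast markers rose (median 3.12, summed signal 1871 to 2528 on proliferating and 5316 to 5671 on quiescent control arrays), as did the 3 macrophage markers tested of 6 (median 1.38, summed signal of the 6 from 31.2 to 39.0 and from 286 to 287) and 4 of 5 markers of differentiated muscle (median 1.97, summed signal 91.5 to 889 and 1125 to 1700). On all proliferating control arrays, 1 macrophage and 2 fibroblast markers were above the 40th percentile, beside 3 and 4 on all quiescent ones. Some of these markers thus entered the tests through states in which they were higher. All 6 markers of cycling cells fell (median -5.49), and 3 of the 4 myoblast markers tested fell (median -0.97, summed signal of the 5 from 769 to 1274 and from 546 to 652). Their part in the changes of the 7 genes was not tested.

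Bbs2 read 4.03, 4.07 and 4.44 on the proliferating control arrays, 5.91, 5.85 and 5.83 on the quiescent, 5.01, 4.98 and 5.15 on the replated and 4.33, 4.21 and 4.09 on the differentiating arrays. The quiescent arrays were the highest and the replated ones stood apart between them and the rest. The rise of 1.68 (SE 0.13, adjusted p = 3.04e-10) was followed by a fall in replated cells (-0.82, SE 0.13, adjusted p = 1.89e-05), which left it above its proliferating level by 0.87 (SE 0.13, adjusted p = 4.94e-06). On deposited values that last difference was 0.31 (adjusted p = 0.0483), and the arrays overlapped. Differentiating and proliferating cells were not distinguished (0.03, 95% interval -0.25 to 0.31).

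Bbs9 was dim throughout, with 2.41, 2.58 and 2.33 in proliferating, 2.88, 2.85 and 2.88 in quiescent, 2.30, 2.01 and 2.55 in replated and 2.61, 2.19 and 1.76 in differentiating control cells. The quiescent arrays lay closest together and highest. Its rise of 0.43 (SE 0.19, adjusted p = 0.0452) held in 9 of 15 alternatives and in only 1 of the 6 fits without 1 array of the compared groups, with adjusted p between 0.000968 and 0.124. The fall from quiescent to replated cells was -0.58 (SE 0.19, adjusted p = 0.00999).

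Ttc8, another BBSome subunit, had its lowest control level in replated cells. It read 5.80 to 6.05 on the 3 proliferating arrays, and 5.48, 5.71 and 5.71 in quiescent, 4.07, 3.91 and 3.71 in replated and 5.36, 5.47 and 5.05 in differentiating control cells. It was the only one of the 7 genes whose control mean was highest in proliferating cells, although quiescent cells were not distinguished from them (-0.32, SE 0.16, adjusted p = 0.0754). With the arrays centred on their medians instead, this drop passed (-0.48, adjusted p = 0.00898). It fell on replating (-1.73, SE 0.16, adjusted p = 9.35e-09), the largest change of the 7 genes in that comparison, and was lower in differentiating than in proliferating cells (-0.66, SE 0.16, adjusted p = 0.00128).

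Of the transition zone genes, Tctn2 changed most with quiescence. Its control values were 1.92, 1.83 and 1.78 in proliferating, 3.09, 3.11 and 3.30 in quiescent, 2.24, 2.28 and 1.80 in replated and 2.00, 1.89 and 1.79 in differentiating cells. Only the quiescent arrays stood apart. The rise was 1.32 (SE 0.16, adjusted p = 2.04e-07) and the fall on replating -1.06 (SE 0.16, adjusted p = 7.18e-06), and the 3 other states were not distinguished from their neighbours in the order of levels. With no filter on low values, both passed as well (1.32, adjusted p = 1.59e-07, and -1.06, adjusted p = 6.49e-06). After centring, replated cells were higher than proliferating ones (0.67, adjusted p = 0.000107).

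The B9-domain genes B9d1 and B9d2 were higher in proliferating and quiescent than in replated and differentiating control cells. For B9d2, replated minus proliferating was only -0.21 (SE 0.09, adjusted p = 0.0357), with overlapping arrays. That call held in 9 of 16 alternatives and in 2 of the 6 fits without 1 array of the compared groups. B9d1 read 4.91, 4.88 and 4.97 in proliferating and 4.80, 4.97 and 5.27 in quiescent control cells, and B9d2 read 5.22, 5.35 and 5.46 and then 5.54, 5.46 and 5.60. Arrays of these 2 states overlapped for both genes, and neither change was called (0.10, SE 0.15, adjusted p = 0.571 for B9d1, and 0.19, SE 0.09, adjusted p = 0.0599 for B9d2). On deposited values B9d2 was called higher (0.24). Which of replated and differentiating cells was lowest depends on the scaling: differentiating minus replated was -0.05 for B9d1 and -0.26 for B9d2 after quantile normalisation, and 0.63 (adjusted p = 0.00082) and 0.30 (adjusted p = 0.00288) on deposited values. Both were lower in replated than in quiescent cells (-0.66, SE 0.15, adjusted p = 0.000479 for B9d1, and -0.40, SE 0.09, adjusted p = 0.000496 for B9d2) and lower in differentiating than in proliferating cells (-0.62, SE 0.15, adjusted p = 0.00116, and -0.47, SE 0.09, adjusted p = 0.000141).

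Kif3a was highest in quiescent and differentiating cells by its first probe set. Its first probe set read 5.42, 5.53 and 5.51 in proliferating, 6.68, 6.60 and 6.84 in quiescent, 6.07, 6.15 and 6.24 in replated and 6.69, 6.63 and 6.53 in differentiating control cells. It rose by 1.22 in quiescent (SE 0.10, adjusted p = 3.04e-10) and by 1.13 in differentiating cells (SE 0.10, adjusted p = 3.96e-09), and it was the only one of the 7 genes called higher in differentiating than in proliferating cells. The other probe set gave the same rise in quiescent cells (1.25, SE 0.12) but a smaller one in differentiating cells (0.44, SE 0.12, adjusted p = 0.00486). The probe sets disagreed in sign between differentiating and replated cells, where the first was called higher (0.47, SE 0.10) and the other lower (-0.31, SE 0.12, adjusted p = 0.0304), so the height of Kif3a in differentiating cells depends on the probe set. Over the 24 arrays their Pearson r was 0.723, a description of arrays that share 4 states.

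**Figure D3:**
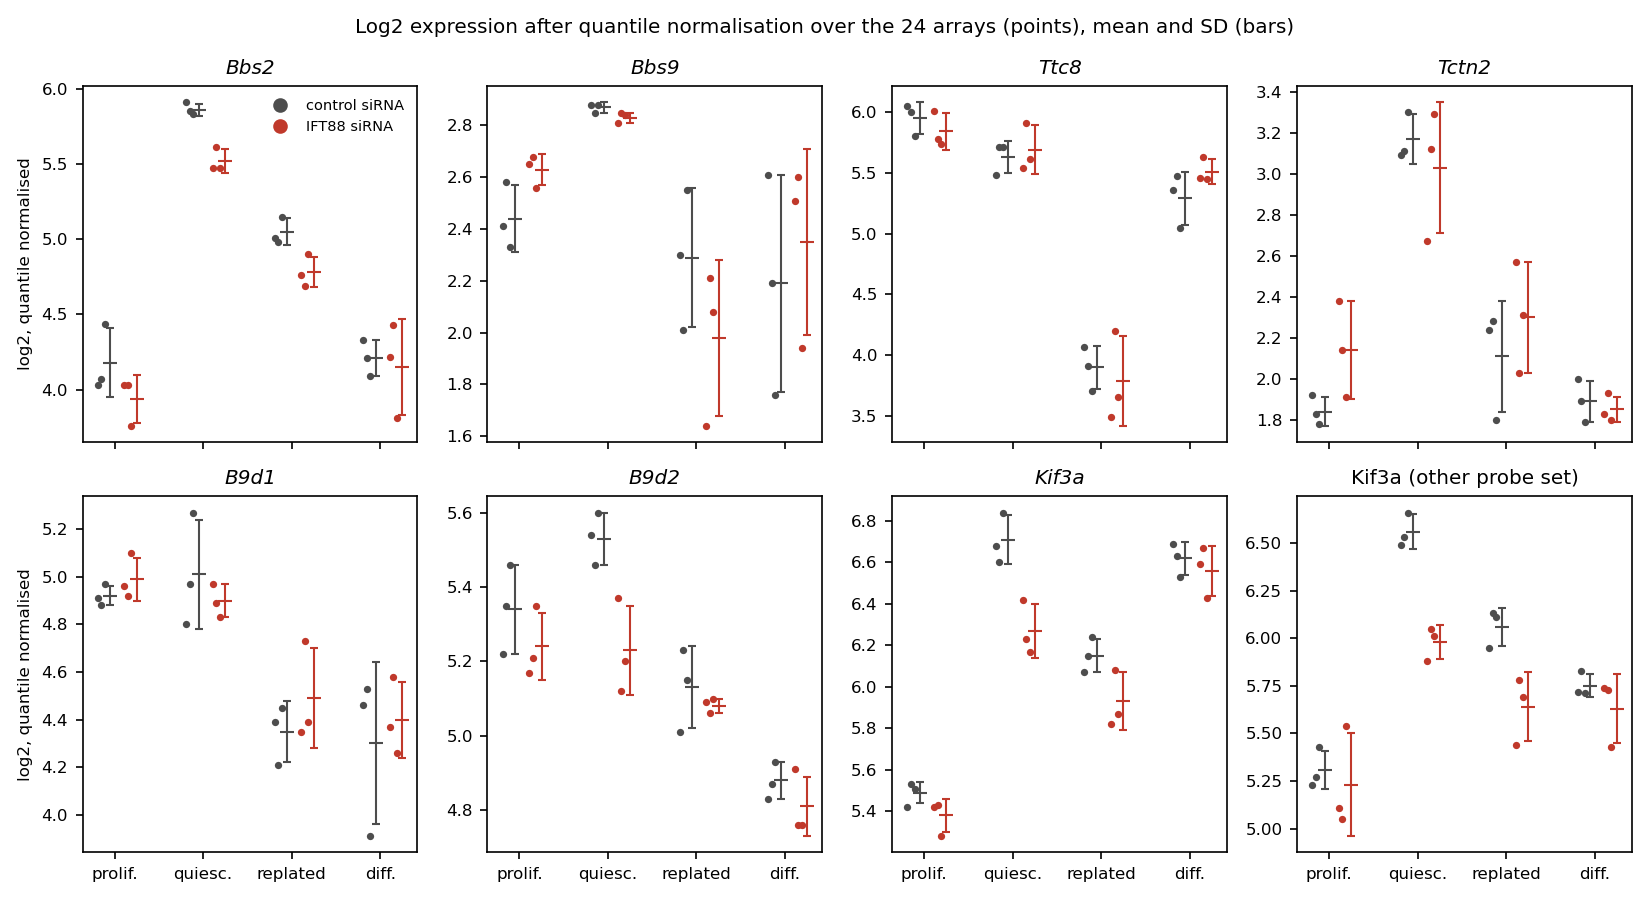
The same 8 probe sets after quantile normalisation over the 24 arrays (log2, own vertical range per panel), by culture state and siRNA; points are arrays and bars the mean and SD of 3. Bbs2 and Tctn2 peak in quiescent cells. Kif3a is high in quiescent and differentiating cells on its first probe set, while its other probe set is highest in quiescent cells. Ttc8 is lowest in replated cells, and B9d1 and B9d2 are lower in replated and differentiating cells than in quiescent ones.

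On replating, all 7 genes fell in control cells, with changes from -1.73 for Ttc8 to -0.40 for B9d2, in a comparison that called 64.3% of all genes and 37.1% as lower. This count depends on the scaling. With arrays centred on their medians, 4 of the 7 passed, and Bbs9 (-0.37), B9d2 (-0.15) and Kif3a (-0.14) did not. Scaling moved the median of all genes in this comparison from -0.61 on deposited values to -0.10 after quantile normalisation and 0.25 after centring, and the share of called genes that were higher from 12.6% to 42.3% and 68.9%. All 7 genes were below the median of all genes under each of these 3 scalings.

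Between proliferating and differentiating control cells, where 54.3% of all genes were called, 1 of the 7 was higher (Kif3a) and 3 were lower (Ttc8, B9d1 and B9d2). Bbs2 (0.03), Tctn2 (0.05) and Bbs9 (-0.25) were not called. Centring moved the share of called genes that were higher from 48.7% to 34.8% here and left these calls as they were. From proliferating to quiescent cells that share was 52.9% after quantile normalisation, 58.7% on deposited values and 45% after centring.

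Ordered by control level over the 4 states, the 7 genes give 21 pairs of neighbouring levels, of which 10 passed the test and 11 were not distinguished. The 3 further pairs of states this order needs called 76.0% of all genes (replated against proliferating), 66.4% (differentiating against quiescent) and 74.0% (differentiating against replated). From low to high, Bbs2 ran differentiating and proliferating (not distinguished), replated, quiescent. On its first probe set Kif3a ran proliferating, replated, and then differentiating and quiescent (not distinguished). On the other probe set, differentiating cells were below replated (-0.31, limma adjusted p = 0.0304) and quiescent cells (-0.80, adjusted p = 9e-06). Ttc8 ran replated and then differentiating, quiescent and proliferating, of which no neighbours were distinguished. B9d2 ran differentiating, replated and proliferating, each distinguished from the next, with proliferating and quiescent not distinguished. Steps next to the replated arrays depend on the scaling. On deposited values the order of B9d2 in differentiating and replated cells turned (differentiating higher by 0.30, adjusted p = 0.00288, against -0.26 after quantile normalisation), and after centring its step from replated to proliferating cells was not called (adjusted p = 0.179). The step of Kif3a from proliferating to replated cells, 0.67 after quantile normalisation, was 0.22 on deposited values and not called (adjusted p = 0.0527), and its step from replated to differentiating cells was 0.06 after centring (adjusted p = 0.604). For Bbs2 the step from differentiating to replated cells was not called on deposited values (-0.24 for differentiating minus replated, adjusted p = 0.121). Ttc8 was called lower in differentiating than in quiescent cells on deposited values (-0.43, adjusted p = 0.0293) but not after quantile normalisation.

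The states were compared with IFT88KD as well. From proliferating to quiescent cells (68.1% of all genes called, 35.0% higher) 3 of the 7 rose, Bbs2 by 1.57, Kif3a by 0.90 and Tctn2 by 0.88, and Bbs9 was not called (0.21, adjusted p = 0.336). On replating (63.3% called, 35.8% lower) 6 of the 7 fell, Ttc8 (-1.90) and Bbs9 (-0.86) the most, and B9d2 was not called (-0.15, adjusted p = 0.152). From proliferating to differentiating cells (50.1% called) Kif3a rose by 1.18, and B9d1 (-0.59) and B9d2 (-0.43) fell. Ttc8, called lower in control, was not called there with IFT88KD (-0.33, adjusted p = 0.0848), and the siRNA effect on it was not shown to differ between the 2 states (0.33, SE 0.24, adjusted p = 1). The fall of Kif3a on replating with IFT88KD (-0.35, adjusted p = 0.00352) was 0.01 after centring.

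Across the 24 arrays the 7 genes did not share a single pattern. Pearson r on quantile normalised values was highest between Bbs2 and Tctn2 (0.843), then Bbs9 and B9d1 (0.753) and B9d1 and B9d2 (0.711), and lowest between B9d1 and Kif3a (-0.296). Among the measured BBSome subunits, r was 0.606 for Bbs9 and Ttc8, 0.454 for Bbs2 and Bbs9 and -0.17 for Bbs2 and Ttc8. Of all genes kept, the one with the highest r was Spsb2 for Bbs2 (0.973), Lgals8 for Bbs9 (0.816), Gemin8 for Ttc8 (0.972), Epdr1 for Tctn2 (0.936), Retsat for B9d1 (0.902), Stmn2 for B9d2 (0.857) and Lrba for Kif3a (0.948). These values describe arrays that share 4 states, and no test was made on them.

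Among other genes of the cilium, 46 of 47 measured were tested, and with IFT88KD limma called none in any state. At an unadjusted p under 0.05 there were 7 of the 46 in replated, 5 in quiescent, 3 in proliferating and 0 in differentiating cells. Over all 8597 genes, 1227, 1405, 529 and 405 had such a p. The median differences of the 46 were -0.05, -0.03, -0.01 and 0.03 in that order. With the replicate number as a block, 1173 of all genes passed in quiescent and 955 in replated cells. Of the 46, 2 passed in quiescent cells. Rab3ip, an exchange factor of the ciliary GTPase RAB8, was lower (-0.55, adjusted p = 0.00956), and Ift46, an IFT-B gene, was higher (0.30, adjusted p = 0.0179). In replated cells 6 passed with the block, the IFT-A gene Ift122 (-0.39) and Odf2, of the basal body (-0.40), as lower, and Rab23 (0.37), Unc119 (0.35), Ift46 (0.33) and the IFT-B gene Ift27 (0.31) as higher. With array weights, 1 passed in proliferating cells (Tub, -0.47), 2 in quiescent cells (Rab3ip and Ift46 again) and 5 in replated cells, which were Kif3b (-0.85), Ift122 (-0.52), Rab23 (0.52), Unc119 (0.45) and the IFT-B gene Ift57 (0.26). Rab3ip also passed without IFT88KD quiescent replicate 3 or control quiescent replicate 1, and Rab23 and Unc119 without control replated replicate 1. From proliferating to quiescent control cells 23 of the 46 rose and 12 fell (18 and 15 after centring, 24 and 8 on deposited values), on replating 2 rose and 25 fell (9 and 21 after centring, 1 and 42 on deposited values), and from proliferating to differentiating cells 8 rose and 13 fell (3 and 18 after centring, 6 and 12 on deposited values). Over all genes on quantile normalised values, 37.3% were called higher and 33.2% lower in the first of these comparisons. The shares were 27.2% and 37.1% on replating, and 26.5% and 27.9% from proliferating to differentiating cells. These same shares stand beside the counts by list that follow.

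The remaining BBSome genes were 3. Bbip1, a small BBSome subunit, rose by 0.72 and Lztfl1, a regulator of BBSome entry into the cilium, by 0.51 in quiescent cells, while Mkks, a chaperonin-like protein of BBSome assembly, fell (-0.56). None of the 3 was called on replating. Of 6 further transition zone genes, Tctn3, another tectonic, rose by 0.58 and Ahi1 by 0.34 in quiescent cells, Cep290, which links the gate to the microtubules, fell (-0.98) and so did Rpgr (-0.54), and on replating Rpgr (-1.34), Cep290 (-1.27), Tctn3 (-0.60) and Tmem216 (-0.54) fell. The tectonics Tctn2 and Tctn3 were both called higher in quiescent cells and lower on replating, where 37.3% and 37.1% of all genes were so called. Tctn2 entered the tests through its quiescent arrays, and a link between the 2 genes was not tested. Ahi1 was not called after centring (0.25, adjusted p = 0.0856).

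Of the partners of Kif3a, Kif3c rose by 1.17 and Kifap3, the kinesin-associated subunit, by 0.47 in quiescent cells, and Kif3b, the usual motor partner, fell (-0.63, adjusted p = 0.0229; not called on deposited values, -0.46). Kifap3 fell on replating (-1.31), and Kif3c was not called there (-0.05). The 13 IFT-B genes other than Ift88 split in quiescent cells, with 6 higher and 3 lower (Hspb11 1.11, Ttc30a1 -1.08, Ttc30b 0.99), and 10 of them fell on replating (Ttc30b -2.29, Ift81 -1.72, Ift80 -1.13). Ttc30a1 and Ttc30b are near-identical copies whose signals may mix. All 3 tested genes on the IFT-A list, which includes the IFT-A-associated Tulp3, rose in quiescent cells, Ift140 by 0.97. All 3 fell on replating, Tulp3 the most (-0.82). After centring, Ift140 (-0.17) and Ttc30a1 (-0.28) were not called on replating.

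Of 8 genes for ciliary GTPases and the carriers that serve them, 6 rose and 1 fell in quiescent control cells, with a median of 0.38. Inpp5e, a phosphoinositide phosphatase of the ciliary membrane, rose by 1.02, Pde6d, a carrier of prenylated proteins, by 0.49 and Rab3ip by 0.46, the last not called after centring (0.27, adjusted p = 0.147). On replating 4 of the 8 fell, Pde6d (-1.71) and Rab3ip (-0.81) the most, and Tub rose by 0.86. The 7 basal body genes tested had 1 higher and 3 lower in quiescent cells, where Cep89 (-1.42), Ofd1 (-1.15) and Cep164 (-0.50) fell, Cep164 not called on deposited values (-0.27). On replating Pcm1, of the centriolar satellites, fell (-0.73), and so did Cep89 (-0.35).

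**Figure D4:**
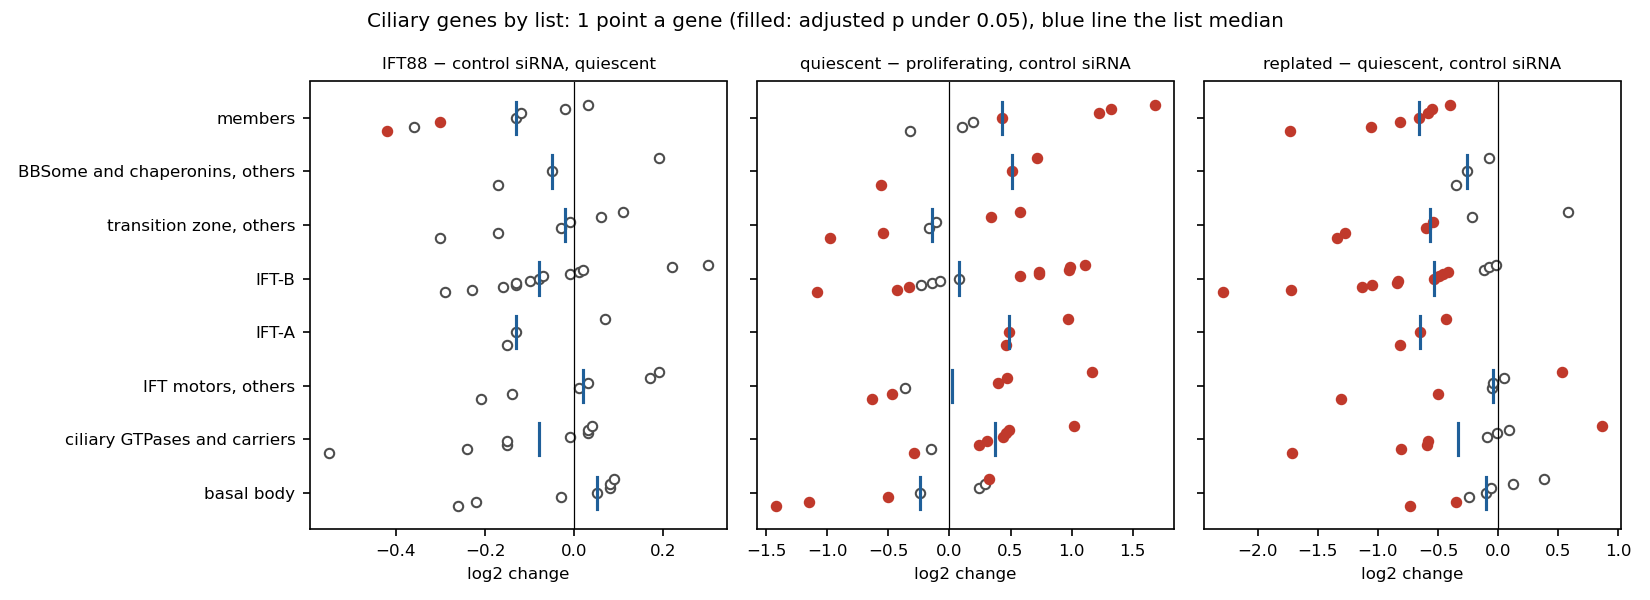
Log2 change of each tested ciliary gene by list in 3 comparisons (deposited values on the left, quantile normalised values in the other panels); 1 point is 1 gene, filled where adjusted p was under 0.05, and blue lines are list medians. The only filled points on the left are Kif3a (-0.42) and B9d2 (-0.30), while the states move genes of most lists in both directions on entry to quiescence and mostly downward on replating. Of all genes, 37.1% were called lower and 27.2% higher on replating.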

How the data were processed

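RNA of 24 C2C12 samples was hybridised to Affymetrix mouse expression arrays from 8 ug of total RNA each. The authors deposited log2 expression values, and GCOS, Affymetrix Expression Console and affy are named per the submitters' processing notes, while the normalisation method is not given in the sources used here. No detection calls were used, so dim signals have no test of presence, and 3 arrays a group limit the precision.

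The table held 22690 probe sets, of which 64 were controls, 20380 had 1 gene, 691 several and 1555 none in the platform annotation, with symbols updated by gene ID to RefSeq GRCm38.p6 (29 IDs had no match and kept their name). For a gene with several probe sets, the one with the highest mean over all arrays stood for it, with x_at sets used only where no other existed, which gave 12393 genes and, after the filter, 8597. Values came from limma 3.58.1 in R 4.3.3 (lmFit and eBayes, 24 arrays, 8 group means, Benjamini-Hochberg over the genes kept), tested first on simulated data. Comparisons of siRNAs and differences of their effect used deposited values, and comparisons of states used values quantile normalised over the 24 arrays. Intervals are 95% intervals of the fitted difference. Alternatives were the scaling, the filter, the probe set rule, a variance trend with robust fitting, array weights, the replicate block, arrays of the compared groups only, and each replicate left out.

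Replicate numbers paired the siRNAs within each state, since the deviations of same-numbered arrays from their group means correlated at 0.252 to 0.708 and every pair was above 0.1. They also paired replated with quiescent cells (0.155 to 0.421) and, with control siRNA, differentiating with proliferating (0.164 to 0.284) and with replated cells (0.214 to 0.344), but not the other state comparisons. The 7 genes and the pathway and marker lists were chosen with earlier results of these data known. All 7 are named, as are other ciliary genes called with IFT88KD, up to 3 of the largest changes per list and state comparison, and for each of the 7 the gene of highest correlation. Promoter sequences and starts are those of RefSeq GRCm38.p6.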

Additional observations from a re-analysis of the deposited data

How the results depend on the processing

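Of 2144 values of single genes under an alternative, 2052 stayed on the same side of the threshold, 43 lost a call, 46 gained one and 3 changed sign with a call on at least 1 side: Kif3a on replating with IFT88KD, 0.01 after centring the arrays on their medians, and B9d1 (0.63) and B9d2 (0.30) in differentiating minus replated control cells on deposited values. A further 50 changed sign without a call on either side. The count of 2 of the 7 genes called between the siRNAs in quiescent cells was 1 after centring, 1 with no filter, 1 with a variance trend and robust fitting, and 0 by limma on the arrays of the compared groups alone. Leaving out 1 array gave 0 to 2, with 0 without IFT88KD quiescent replicate 3 or control quiescent replicate 3. In replated cells the count was 1 with the mean of probe sets, in place of 0. After centring, 4 of the 7 passed on replating in control cells, in place of 7, and 5 from proliferating to differentiating cells with IFT88KD, in place of 3. The cause was not tested. The other counts of called genes among the 7 stayed within 1.5 times, and 9 to 15 of the 21 neighbouring levels were distinguished. With the replicate number as a block no call of the 7 genes between the siRNAs changed. Between states, Ttc8 passed with it from proliferating to quiescent control cells (-0.32, adjusted p = 0.042), in differentiating minus quiescent control cells (-0.34, adjusted p = 0.0327) and from proliferating to differentiating cells with IFT88KD (-0.33, adjusted p = 0.0466), where the numbers do not pair the samples. Over all genes, the alternatives called 275 to 1173 genes between the siRNAs in quiescent, 80 to 955 in replated, 0 to 231 in proliferating and 0 to 89 in differentiating cells, the 0 with the arrays of the compared groups alone and, in differentiating cells, also without IFT88KD differentiating replicate 3. For the differences of the effect they called 77 to 330 (quiescent against proliferating), 0 to 13 (replated against quiescent) and 0 to 44 (differentiating against proliferating). Signal over background limits Bbs9 and Tctn2, which were above the 40th percentile on 17 and 9 of the 24 arrays.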
